A study of Homo sapiens with 4 samples.

Results

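The proteasome degrades proteins that carry ubiquitin chains, and the genes for its subunits were followed in cells given an shRNA against PRMT5. The members were the gene names of the 4 count tables that begin with PSM, a letter from A to G and a number, apart from PSMB8 and PSMB9, which were left out. They numbered 46 of 29655 distinct names, and no member name was repeated in a table. By role, 17 belong to the core particle, 17 to the regulatory particle, 5 to the activators and the inhibitor PSMF1, and 7 to the assembly chaperones.

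The libraries came from UMSCC74B, a head and neck squamous cell carcinoma (HNSCC) line, with total RNA read on a Singular Genomics G4 after directional library preparation. There were 2 control libraries, from cells given control shRNA, and 2 libraries labelled PRMT5 KD, from cells given PRMT5 shRNA, all taken at 72 h from cells of the same wild-type genotype. PRMT5 is the main enzyme that places symmetric dimethyl marks on arginine. The sample labels describe transfected plasmids, whereas the methods describe lentiviral particles, and nothing says whether replicates were separate cultures, so the tests measure only the spread between these libraries.

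The core particle is a barrel of stacked rings, with alpha subunits outside and beta subunits inside, and the beta subunits PSMB5, PSMB6 and PSMB7 carry the cutting sites. The regulatory particle caps the barrel: a ring of ATPases unfolds substrates, and the non-ATPase subunits bind ubiquitin, remove it and hold the cap together. Other caps (PSME1 to PSME4) open the barrel without ATP, and dedicated chaperones build the rings. When proteasome activity falls, the transcription factor NFE2L1 is known to raise many subunit genes together through antioxidant response elements, and interferon is known to raise the inducible subunits and the PSME1 and PSME2 cap.

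The label was checked on its target first. PRMT5 stood at 94.3 and 84.3 CPM (counts per 1e+06 protein-coding counts, after scaling with TMM factors) in control 1 and 2, and at 132 and 150 in the libraries labelled PRMT5 KD. It was thus higher under the KD label, by 0.66 on the log2 scale (SE 0.12, edgeR FDR 0.0054), and without control 2 the call was lost (0.58, edgeR FDR 0.0677). Every direction given here is therefore that of the libraries labelled PRMT5 KD and not of a measured fall in PRMT5 mRNA. The exons of PRMT5 overlap those of PRMT5-AS1 on the opposite strand over 924 bases, and whether the counting used strand is not stated. The labels state that PRMT5 mRNA and protein were assayed separately, by quantitative PCR and immunoblot, which were not analysed here. Whether the labels of the libraries were exchanged was not tested.

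Libraries held between 52185289 and 65964558 counts, and protein-coding genes received 41931913 to 53637505 of them. Ribosomal RNA took 15.3% and 14.2% of the counts in control and 26.2% and 18.0% under the KD label. The squamous markers KRT5, KRT14 and CDH1 lay under 1 CPM in each library, so these defining markers of the labelled cell type were nearly absent. The 7 squamous markers summed to 33.4 and 29.9 CPM in control and 31.5 and 51.9 under the KD label, most of it DSP (26.6 and 22.5 against 27.5 and 45.8 CPM, not called). Of the list, 2 were tested, and TP63 was called lower (5.51 and 6.60 CPM against 1.75 and 3.01). The 5 fibroblast markers were all called lower and summed to 527 and 581 CPM in control against 85.4 and 93.1 under the KD label. The 3 endothelial markers summed to 10.1 and 14 CPM in control against 1.01 and 0.46, 1 of them being tested and called lower. Of 4 leukocyte markers only CD68 exceeded 1 CPM in any library. It was called higher, at 94.7 and 113 CPM in control against 153 and 170 under the KD label. In bulk RNA, fewer cells of a type and less RNA per cell cannot be told apart, and the part of these markers in the results on proteasome genes was not tested.

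Proteasome transcripts stood higher under the PRMT5 KD label than in control. The members took 0.319% and 0.306% of the protein-coding counts in control and 0.544% and 0.562% under the KD label. Summed over the members, the level was 3386 and 3283 CPM in control against 5256 and 5172 CPM, a ratio of 1.56. A gene was called where its FDR was under 0.05 and its log2 fold change reached 0.5 in either direction. Of the 43 members tested, 29 (67.4%) were called higher, where 21.2% of the 11864 genes tested were called higher. None was called lower by edgeR or DESeq2, and 0 were lower at an unadjusted p under 0.05, while 24.4% of all genes were called lower. Counted at the FDR alone, 38 members were higher, against 26.3% of all genes. At a log2 fold change of at least 1 only PSMB10 and PSMC3 were called (4.65% of members tested), against 8.67% of all genes, so the members' share was then below that of all genes.

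The differences were below 1 on the log2 scale for all but PSMB10 and PSMC3. Both libraries labelled PRMT5 KD lay above both controls for 43 of 43 members tested, an arrangement found for 39.9% of all genes tested. The median log2 fold change of the members was 0.70, within a range of 0.17 to 1.16, while the median over all genes tested was -0.01 with quartiles of -0.53 and 0.45. Some 15.6% of all genes tested exceeded the members' median. Each of the 43 had passed the filter on low values in all 4 libraries.

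**Figure D1:**
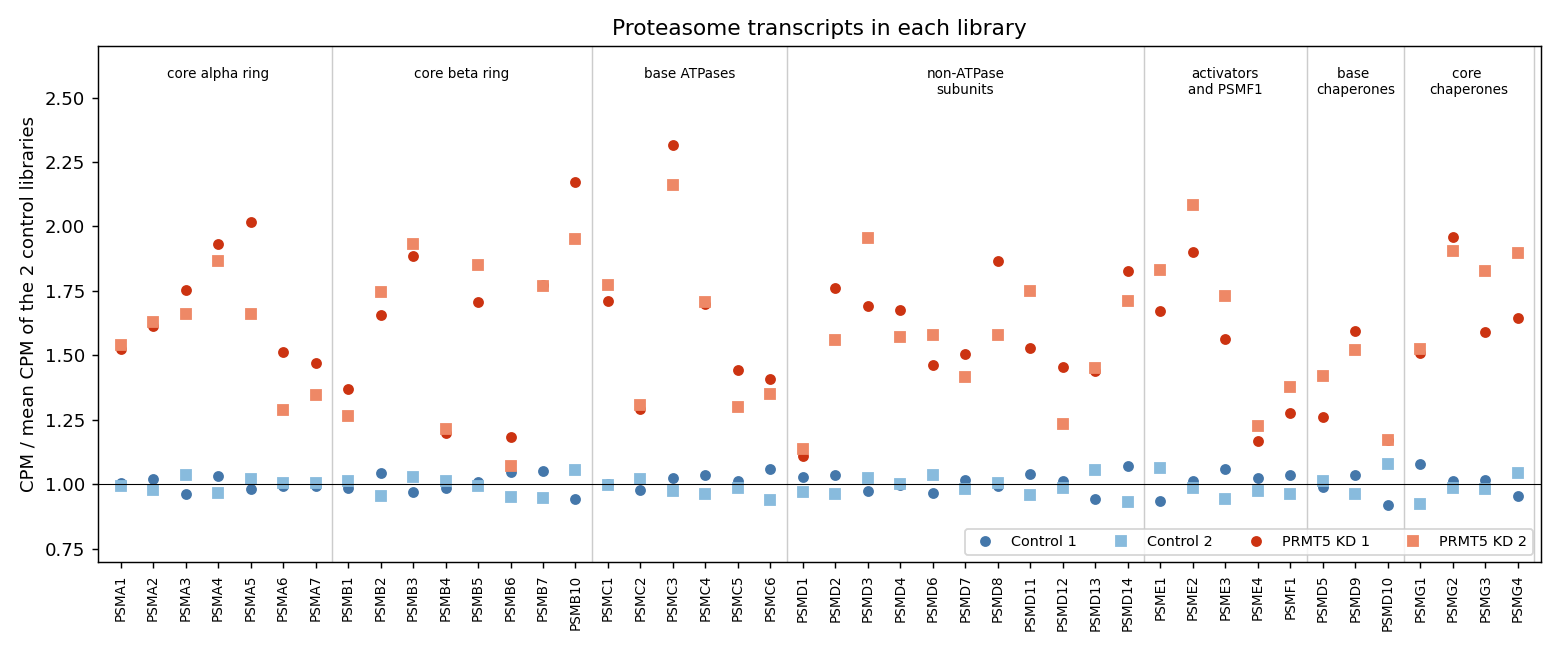
CPM of the 44 members above 1 CPM in control, each divided by its mean in the 2 control libraries (vertical axis, ratio), by role along the horizontal axis. Both libraries labelled PRMT5 KD (red) sit above both controls (blue) for each gene shown, with PSMC3 and PSMB10 farthest from 1 and PSMB6, PSMD1 and PSMD10 nearest.

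In the core particle 10 of 15 tested subunits were called higher, and the 15 had a median of 0.77 on the log2 fold scale. The summed level of the core was 928 and 918 CPM in control and 1488 and 1435 CPM under the KD label. In the alpha ring, which gates entry to the barrel, 5 of 7 were called and the median was 0.70. PSMA4 showed the largest difference of the ring, with 64.3 and 60.3 CPM in control and 120 and 116 CPM under the KD label, a log2 fold change of 0.93. PSMA5, PSMA3, PSMA2 and PSMA1 followed at 0.88, 0.77, 0.70 and 0.62. PSMA7 and PSMA6 passed the FDR but stayed just under the fold threshold, both at 0.49. PSMA8, the subunit that takes the place of PSMA7 in testis, had 0 counts in each library.

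Of the beta ring, 5 of 8 tested subunits were called, and of the 3 catalytic subunits 2 passed the test. PSMB5, the chymotrypsin-like subunit and the target of bortezomib, stood at 54.9 and 54.1 CPM in control and 93.1 and 101 CPM under the KD label. Its groups were well apart, and the log2 fold change was 0.83 (SE 0.11, edgeR FDR 0.00144). PSMB7, the trypsin-like subunit, went from 104 and 93.6 CPM to 175 and 175 CPM, also by 0.83 (edgeR FDR 0.00167). PSMB6, the caspase-like subunit, stood at 20.1 and 18.3 CPM against 22.7 and 20.6 CPM. The highest control and the lowest library labelled PRMT5 KD nearly met, and the log2 fold change of 0.17 (95% interval -0.15 to 0.50, edgeR FDR 0.312) was not past the threshold. The differences between these 3 subunits were not tested.

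Among the structural beta subunits PSMB3 reached 0.93, from 48.7 and 51.6 to 94.5 and 96.9 CPM, and PSMB2 reached 0.77. PSMB1 passed the FDR at a log2 fold change of 0.40, and PSMB4 did not pass it (0.27, edgeR FDR 0.0635). PSMB11, the beta subunit of the thymus, had 1, 2, 0 and 0 counts and was not tested.

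PSMB10, the inducible subunit that replaces PSMB7 in immunoproteasomes, had the second largest fold change of the family. It stood at 15.6 and 17.6 CPM in control and at 36.1 and 32.4 CPM under the KD label, a log2 fold change of 1.04 (SE 0.14, 95% interval 0.72 to 1.37, edgeR FDR 0.00143). Set per transcript length against PSMB7, its level was 15.2% and 18.9% of that of PSMB7 in control and 20.8% and 18.7% under the KD label. These ratios overlapped between the groups, and with 2 libraries a group the smallest two-sided exact permutation p is 0.333, so no change of balance between the subunits could be shown. Its exons share 640 bases with a readthrough gene on the same strand, so reads from that gene may be included. PSMA1, PSMA2, PSMA6 and PSMD9 also share exon bases with other protein-coding genes on the same strand (814, 1445, 919 and 1307).

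The regulatory particle was also higher, with 12 of 17 subunits called and a median log2 fold change of 0.70. Its summed level was 1816 and 1743 CPM in control and 2858 and 2758 CPM under the KD label. PSMC3, an ATPase of the base, had the largest fold change of the family. It stood at 49.6 and 47.1 CPM in control and 112 and 105 CPM under the KD label, and the lower of the KD values was 2.11 times the higher control value. The log2 fold change was 1.16 (SE 0.11, 95% interval 0.90 to 1.43, edgeR FDR 0.000534). Of the other ATPases, PSMC1 and PSMC4 were called at 0.80 and 0.77, while PSMC6, PSMC5 and PSMC2 passed only the FDR at 0.47, 0.46 and 0.38. The exons of PSMC1 overlap those of NRDE2 on the opposite strand over 4667 bases, and whether the counting used strand is not stated.

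Of the 11 non-ATPase subunits 9 were called, and their median log2 fold change was 0.70. PSMD14, the deubiquitinase that removes ubiquitin chains from substrates, went from 78.8 and 68.6 CPM to 135 and 126 CPM (log2 fold change 0.82, SE 0.12). PSMD4, a ubiquitin receptor, went from 52.5 and 52.7 CPM to 88.2 and 82.6 CPM (0.70, SE 0.11). In both genes the groups were far apart compared with the distance between replicates. PSMD2, a large scaffold subunit of the base at chr3:184299198-184309050 (GRCh38), was the most abundant member, at 539 and 499 CPM in control and 914 and 810 CPM under the KD label (0.73). Without PSMD2, the regulatory particle still summed to 1277 and 1243 CPM in control and 1944 and 1948 CPM under the KD label. PSMD3, PSMD8, PSMD11, PSMD6, PSMD7 and PSMD13 were called at 0.87, 0.78, 0.71, 0.60, 0.55 and 0.53. PSMD12 passed only the FDR (0.43). PSMD1, the other large scaffold, stood at 211 and 198 CPM against 227 and 233 CPM, and its log2 fold change of 0.17 did not pass (95% interval -0.10 to 0.44, edgeR FDR 0.236).

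**Figure D2:**
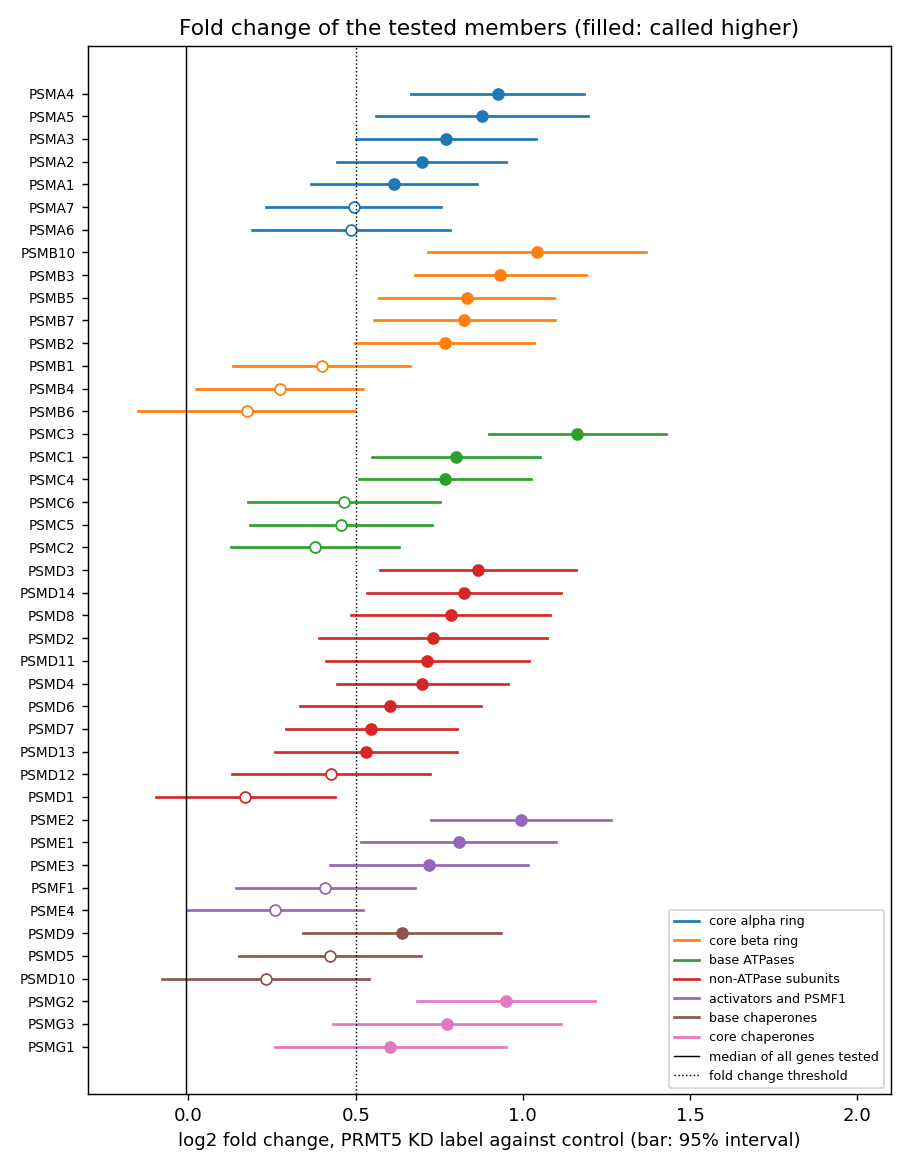
log2 fold change of the 43 tested members (horizontal axis; points, with 95% intervals as bars) by role, libraries labelled PRMT5 KD against control; filled points were called higher. The points lie between 0.17 and 1.16, right of the median of all genes tested (solid line, -0.01), and 29 of them are past the fold threshold of 0.5 (dotted line).

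Of the alternative caps, the interferon-inducible pair and the nuclear PSME3 were called higher. PSME2, which forms the PA28 ring together with PSME1, had the third largest fold change of the family: 40.7 and 39.5 CPM in control, 76.3 and 83.6 CPM under the KD label, log2 fold change 1.00 (SE 0.11, edgeR FDR 0.000891). PSME1 went from 58.6 and 66.4 CPM to 105 and 114 CPM (0.81, SE 0.12). PSME3, the PA28 subunit of the nucleus, went from 152 and 135 CPM to 225 and 249 CPM (0.72, SE 0.12). The control and KD values of these 3 genes did not overlap.

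PSME4, the PA200 cap, did not pass the test, at 151 and 143 CPM in control and 172 and 181 CPM under the KD label (0.26, 95% interval -0.00 to 0.52, edgeR FDR 0.0842). PSMF1, a protein that inhibits the core in vitro, stood at 71.3 and 66.4 CPM against 87.9 and 95 CPM and passed only the FDR (0.41, edgeR FDR 0.0212).

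Of the chaperones, 3 of 3 tested for the core and 1 of 3 for the base were called higher, where 21.2% of all genes were. With 3 genes each, these counts cannot be told apart from that share or from each other. PSMG2, which pairs with PSMG1 to guide the alpha ring, went from 25.8 and 25.1 CPM to 49.8 and 48.5 CPM (0.95, SE 0.11). PSMG1 went from 14 and 12 CPM to 19.6 and 19.8 CPM (0.60, edgeR FDR 0.0131), and PSMG3 from 12.5 and 12.1 CPM to 19.6 and 22.4 CPM (0.77, edgeR FDR 0.00491). PSMG4, the partner of PSMG3, stood at 2.83 and 3.10 CPM in control and 4.88 and 5.63 CPM under the KD label. It did not pass the RPKM filter and so was not tested in the main comparison. With filterByExpr in place of that filter it was called at 0.89 (edgeR FDR 0.0148). Of the base chaperones only PSMD9 was called (0.64). PSMD5 passed the FDR at 0.42, and PSMD10, also known as gankyrin, did not (28.3 and 33.2 CPM against 36.1 and 36.1 CPM, 0.23, edgeR FDR 0.171).

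Leaving out a library changed some calls but no direction. Between 22 and 34 members were called, with medians between 0.66 and 0.72, while the share of all genes called higher ran from 11.4% to 23.2%. Without control 2, where 22 members and 11.4% of all genes were called higher, the calls of PSMD2, PSMD7, PSMD9, PSMD11, PSME3, PSMG1 and PSMG3 were lost, and without control 1 (27 members, 14.6% of all genes) those of PSMD6 and PSMD13. Without the library labelled PRMT5 KD 1, which had the most ribosomal RNA, 31 members and 23.2% of all genes were called higher. With scaling by total counts alone the median of all genes shifted from -0.01 to 0.17, 61.5% in place of 46.6% of all calls were higher, and 38 members were called with a median of 0.88, against 29.5% of all genes called higher.

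The promoters of the members were searched for 3 short motifs, in RefSeq windows of 300 bases (250 before the start and 50 after it, build GRCh38.p14) that matched 40 of the 46 members with 48 windows. TGACNNNGC, the core of the antioxidant response element, was present on either strand in 14 member windows (29.2%), against 13.3% of all 35116 windows. CCAAT, the box bound by NF-Y, was present in 19 (39.6%), against 34.6%. The third, GAAANNGAAA, is the core of the interferon-stimulated response element and was added after the windows had been read. It was present in 6 member windows (12.5%), against 3.57% of all windows. No 2 motifs share letters at the sites shown. Of the members with the antioxidant core, PSMA4, PSMB3, PSMC4, PSMD3, PSMD9, PSME1, PSME2, PSMG1 and PSMG2 were called higher. PSMC5, PSMD1, PSMD5, PSMD12 and PSME4 also held it and were not called. Over all 43 members tested 67.4% were called higher, and a link between motif and call was not tested. A match is a description of letters and not a binding site.

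Upstream sequence is shown for the member with the largest fold change (PSMC3), 2 called members with an antioxidant core (PSMB3 and PSMD3) and the interferon-inducible pair of highest fold change (PSMB10 and PSME2). Except for PSME2, each stretch ends before the first base in an exon of a protein-coding transcript. For PSME2 only the last 30 bases are given, and whether they lie in such exons was not checked. Sequences run 5′ to 3′ on the gene strand, and capitals mark motif matches on either strand.
PSMC3, chr11:47426474-47426689, minus strand: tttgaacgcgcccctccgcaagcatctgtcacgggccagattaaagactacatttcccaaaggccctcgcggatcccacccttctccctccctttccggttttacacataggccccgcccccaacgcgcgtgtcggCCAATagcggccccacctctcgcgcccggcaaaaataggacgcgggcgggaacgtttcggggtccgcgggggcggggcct
PSMB3, chr17:38752491-38752740, plus strand: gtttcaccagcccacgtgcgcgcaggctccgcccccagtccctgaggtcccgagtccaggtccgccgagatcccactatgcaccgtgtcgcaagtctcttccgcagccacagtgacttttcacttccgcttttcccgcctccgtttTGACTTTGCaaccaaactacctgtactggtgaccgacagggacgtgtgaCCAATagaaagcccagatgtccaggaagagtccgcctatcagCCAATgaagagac
PSMD3, chr17:39980557-39980806, plus strand: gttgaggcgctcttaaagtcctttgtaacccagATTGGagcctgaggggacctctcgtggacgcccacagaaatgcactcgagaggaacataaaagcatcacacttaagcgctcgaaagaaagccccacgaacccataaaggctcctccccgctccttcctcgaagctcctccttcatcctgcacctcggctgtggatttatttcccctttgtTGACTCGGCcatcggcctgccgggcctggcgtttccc
PSMB10, chr16:67936851-67937100, minus strand: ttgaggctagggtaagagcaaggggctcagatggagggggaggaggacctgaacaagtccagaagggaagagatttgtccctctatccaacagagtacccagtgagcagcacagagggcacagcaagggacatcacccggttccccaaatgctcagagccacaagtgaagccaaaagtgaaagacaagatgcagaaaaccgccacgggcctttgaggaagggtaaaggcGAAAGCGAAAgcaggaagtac
PSME2, chr14:24146611-24146640, minus strand: gtGAAAGCGAAAgcccgggcgactagccgg

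PSMC3 held a CCAAT box 114 bases before its start and no antioxidant core. PSMB3 held an antioxidant core 104 bases before the start and CCAAT boxes at 55 and 13 bases. PSMD3 held the antioxidant core at 37 bases, another 33 bases after the start on the other strand, and a CCAAT box at 217 bases, also on the other strand. PSME2 held an antioxidant core too, 175 bases before its start and outside the stretch printed. PSMB10 and PSME2 carried the same 10 bases, GAAAGCGAAA, at 21 and 28 bases before the start. That exact run occurred in 35 of all 35116 windows, and 4 of them belonged to members: PSMB10, PSME1, PSME2 and PSMG4. It was picked out after it had been seen in these sequences, and no test was made of it. In PSME1 the run lies 5 bases after the start. Those 4 genes had log2 fold changes of 1.04, 0.81, 1.00 and, with filterByExpr, 0.89. The median of the tested members was 0.70, or 0.76 with filterByExpr. PSMB10 and PSME2 had been shown for their high fold changes, so these values cannot serve as evidence about the run. PSMA4 and PSMB4, which matched GAAANNGAAA without that exact run, stood at 0.93 and 0.27, and PSMB4 was not called.

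Subunits that sit in the complex in equal number differed widely in transcript level per length. With CPM per kilobase of the MANE Select transcript, the standard transcript of each gene, the 14 constitutive core subunits spanned a ratio of 8.78 and 9.81 in the 2 controls and 8.31 and 7.85 under the KD label. PSMB2 was the lowest of them in each library, at 13.5 and 12.4 in control and 21.4 and 22.6 under the KD label. PSMB4 was the highest in control (119 and 121) and PSMB7 under the KD label (178 and 177). Measured over the union of all exons, PSMA2 was the lowest instead and PSMB7 was the highest in control 1, so both ends of the order depend on the transcript assumed.

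Order within the base changed at its top. PSMC4 was the highest ATPase in control, at 39.2 and 36.4 CPM per kilobase, with PSMC3 at 32.2 and 30.6. Under the KD label PSMC3 was above it, at 72.7 and 67.9 against 64.2 and 64.5. PSMC6 was the lowest ATPase in each library (16.0, 14.3, 21.4 and 20.5). Among non-ATPase subunits PSMD2 stood alone at 185 and 171 in control and 314 and 278 under the KD label.

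**Figure D3:**
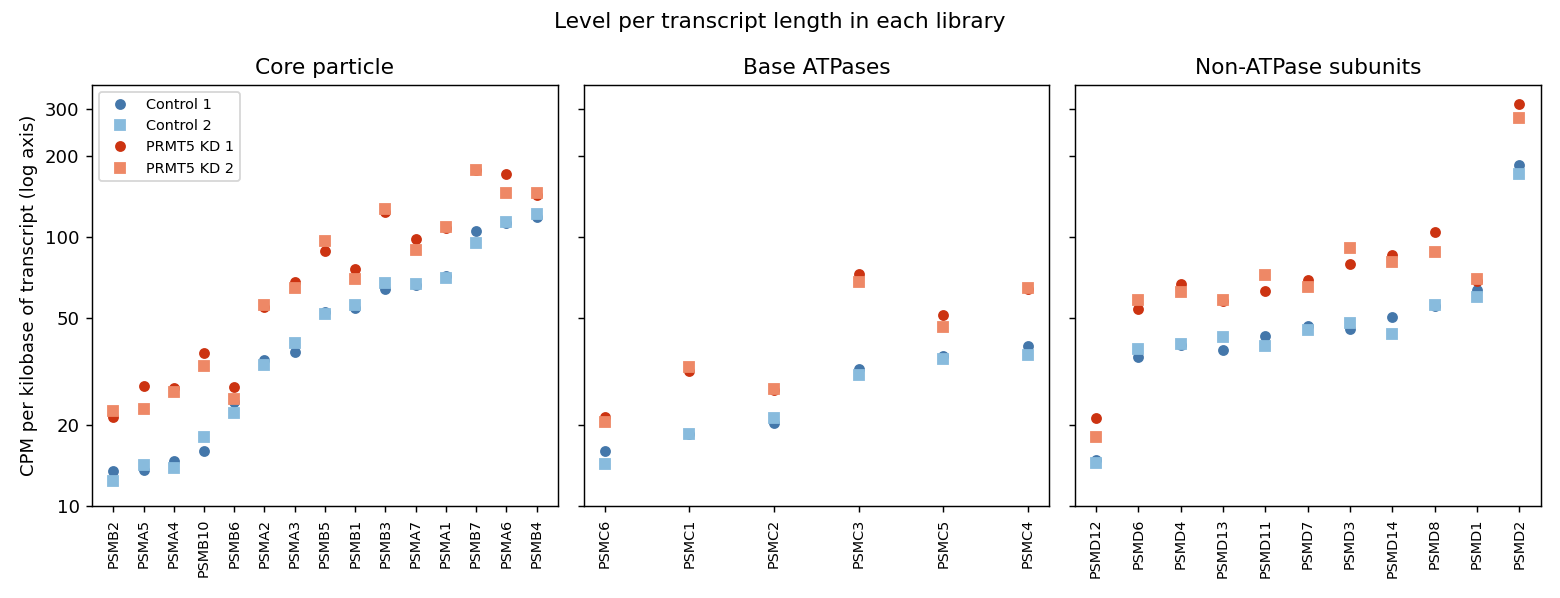
Level of core, ATPase and non-ATPase subunits in CPM per kilobase of the MANE Select transcript (vertical log axis), ordered by the control mean in each panel; each point is 1 library. PSMB2 is lowest and PSMB4 highest of the core in control, PSMC3 passes PSMC4 under the KD label, and PSMD2 stands above the other non-ATPase subunits in each library.

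Transcript length moved with the fold change over all genes. The median log2 fold change was 0.26 in the first of 10 bands of equal gene number, the shortest genes, and -0.38 in the last. Proteasome transcripts are short, with a median of 1553.5 bases for the 46 members against 3357.5 for all genes tested. Of the 43 tested members, 14 fell in the band of shortest genes and 13 in the next. Within those bands the members' medians were 0.79 and 0.70, while the medians of all genes were 0.26 and 0.14.

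**Figure D4:**
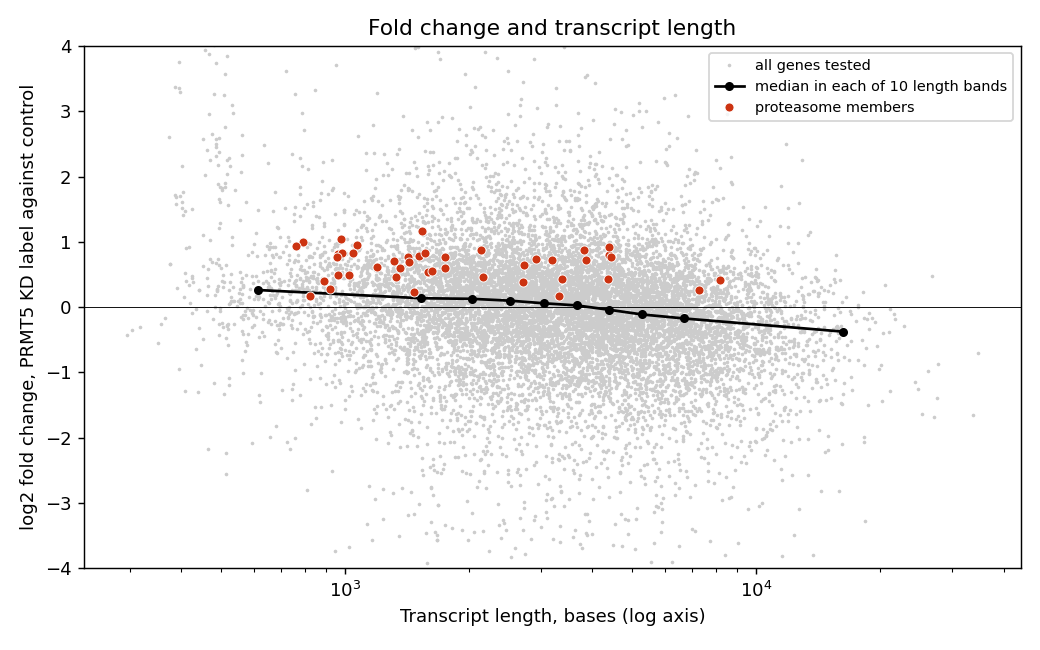
log2 fold change against MANE Select transcript length (log axis) for all genes tested (grey), with the median of each of 10 length bands (black) and the 43 tested members (red); 82 genes lie outside the vertical range. The black line falls from 0.26 to -0.38, and 27 of the red points lie in the first 2 bands, most of them above the line.

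A correction for transcript length and GC content was therefore applied, once with union exon length and once, added after the data had been seen, with MANE Select length. With union exon length 32 members were called, against 24.0% of all genes called higher, and their median was 0.62. PSMD7 and PSMG1 lost their calls there, and PSMA6 (0.51), PSMC2 (0.52), PSMC6 (0.55), PSMF1 (0.69) and PSMD1 gained one. PSMD1 went from 0.17 to 0.54 (edgeR FDR 0.00715), while with MANE Select length it stood at 0.10 and did not pass. With MANE Select length 24 of 43 were called, against 24.0% of all genes called higher, and the median was 0.57 beside 0.06 over all genes. PSMC3 (1.14), PSMA4 (0.96) and PSMB10 (0.92) then had the largest fold changes. PSMA1, PSMA2, PSMA3, PSMD6, PSMD7, PSMD13 and PSMG1 lost their calls, and PSME4 (0.55) and PSMF1 (0.81) gained one. In the alpha ring 2 of 7 were then called in place of 5, with a median of 0.39, whereas all 5 activators including PSMF1 were called. PSMB1, PSMB4 and PSMB6 turned to -0.01, -0.05 and -0.13, all short of the threshold.

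**Figure D5:**
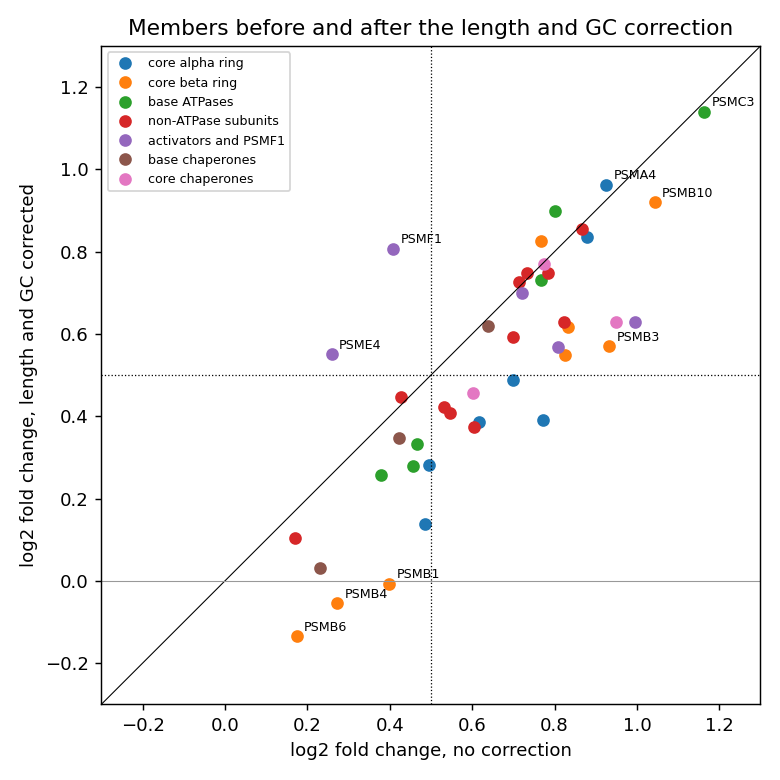
log2 fold change of the 43 tested members without correction (horizontal axis) and after correction for MANE Select length and GC content (vertical axis); the diagonal marks no change and dotted lines the fold threshold of 0.5. After correction 40 of the 43 points remain above 0, PSMB1, PSMB4 and PSMB6 end below 0, and PSMF1 and PSME4 move up across the threshold.

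Other genes of the pathway were taken from a list of 35 partners of the proteasome. Of these 33 were tested, 5 were called higher and 0 lower by edgeR (15.2% and 0%, where 21.2% and 24.4% of all genes were called), and the median partner stood at 0.28 on the log2 fold scale. The share of partners called higher was thus below that of all genes. At an unadjusted p under 0.05, KIAA0368 and NFE2L1 were lower, and DESeq2 also called 0 lower. At the FDR alone 11 of the 33 were higher, where 26.3% of all genes tested were, and the difference from that share was not tested. Only 1 was lower, KIAA0368 (now ECPAS), a scaffold that binds the proteasome (-0.41, edgeR FDR 0.0366). The 5 called partners were POMP, ADRM1, UFD1L (UFD1), NSFL1C and UCHL5.

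Of the partners with a physical place in or on the particle, POMP and ADRM1 had the largest fold changes. POMP, the maturation factor that completes the core, went from 54.9 and 58.1 CPM to 110 and 108 CPM (0.95, SE 0.11, edgeR FDR 0.000881). ADRM1, a ubiquitin receptor of the regulatory particle that lacks a PSM name, went from 58.8 and 55.9 CPM to 104 and 92.0 CPM (0.77, SE 0.12, edgeR FDR 0.00236). Its partner UCHL5, a deubiquitinase, reached 0.60. SEM1, the smallest subunit of the cap and listed as SHFM1, stood at 4.37 and 4.40 CPM against 5.30 and 4.19 CPM, which overlapped, and was not tested.

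The transcription factors known to govern subunit genes were not called higher. NFE2L1 stood at 1025 and 1024 CPM in control and 869 and 695 CPM under the KD label, both values below control (-0.39, edgeR FDR 0.0798). NFE2L2 stood at 178 and 146 CPM against 155 and 135 CPM, which overlapped (-0.16, edgeR FDR 0.373). Their proteins, which are cleaved or stabilised after translation, were not measured. DDI2 and NGLY1, the enzymes that activate NFE2L1, were at 0.12 and -0.07 and did not pass. Of 6 ubiquitin and E1 genes 5 were tested and none was called, and UBB was listed with 4, 4, 0 and 0 counts. None of the 5 shuttle factors was called, and 2 of the 5 genes of the VCP complex, which extracts proteins for degradation, were (UFD1L and NSFL1C). These groups are too small to be told apart from the 21.2% of all genes called higher.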

How the data were processed

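RNA-seq of 2 control and 2 PRMT5 KD libraries of UMSCC74B was analysed. The authors deposited estimated counts, 1 table per library with decimals and no normalization. The submitters' processing notes name FastQC, Trim Galore, STAR, Salmon, DESeq2 and GRCh38, whereas the paper's methods describe STAR and FeatureCounts on uniquely mapped reads. The strand setting is not given in the sources used here. Of 29744 entries, 28 had names turned into dates and were left out (0.150% to 0.161% of counts). Names were matched to GENCODE 44, and 18802 were protein-coding.

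Counts were rounded. Protein-coding genes entered the quasi-likelihood test of edgeR 4.0.16 (robust, TMM, R 4.3.3) where RPKM over union exon length was 0.5 or more in each library of control or of PRMT5 KD. Calls needed a Benjamini-Hochberg FDR under 0.05 and a log2 fold change of 0.5 or more in size. The filter threshold and fold threshold follow the paper's methods. The paper's results section instead gives a log fold change of at least 1 in size. SE was the fold change over the root of F. Alternatives were DESeq2 1.42.0, other scalings and filters, all gene names, a replicate block, length and GC corrections and each library left out in turn. Two-sided tests were used.

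The members, the 35 partners, the marker lists and the tests were chosen with earlier results of these data known. Values in every library were given for the 3 called members with the largest change, the catalytic subunits and PSMB10, PSME1 to PSME4, PSMF1, PSMG1 to PSMG4, PSMD4, PSMD14, PRMT5, ADRM1, SEM1, POMP, NFE2L1 and NFE2L2, and other genes given by library (PSMA4, PSMB3, PSMC4, PSMC6, PSMD1, PSMD2, PSMD10, PSMB2, PSMB4 and UBB among them) were chosen after their values were seen. Levels per MANE Select length were likewise added after the data had been seen. Promoters came from the RefSeq GRCh38.p14 windows.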

Additional observations from a re-analysis of the deposited data

How the results depend on the processing

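Of the 43 tested members, none reversed under DESeq2, other scalings, other filters, all gene names or the replicate block. With 2 libraries a group, the number of libraries limits the precision. The share of all genes called higher was 21.2% in the main setting, 22.0% with DESeq2, 21.6% with its size factors and 21.7% with filterByExpr. It was 17.5% with no filter, 21.4% with the MANE Select RPKM filter, 29.5% with total counts alone and 21.2% with all gene names. The members called higher (29) were 30 with DESeq2 or its size factors and 34 with filterByExpr or no filter. They were 31 with the RPKM filter on MANE Select length and 38 with total counts alone or all gene names. Their median (0.70) was 0.88 with total counts alone, 0.76 with filterByExpr, 0.75 with no filter, 0.81 with all gene names, 0.62 with the length and GC correction (0.62 too when the replicate block was added) and 0.57 with MANE Select length. With the length and GC correction PSMB6 turned to -0.13 (-0.13 with the replicate block, -0.13 with MANE Select length), and with MANE Select length PSMB1 and PSMB4 turned to -0.0066 and -0.055; the cause was not tested.

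The replicate block gave 29 members called and a median of 0.70, and changed the call of no member. No source says that a shared number marks a shared culture, so numbers were not used as pairs, and the deviations of same-numbered libraries from their group means correlated at -0.0999. At a log2 fold change of at least 1, 2 members, 0 partners and 2554 genes were called (1029 higher, 1525 lower). The partners called (5) were 14 with total counts alone and 8 with all gene names or with each length and GC correction. The share of all genes called higher was 29.5% with total counts alone, 21.2% with all gene names and 23.3% to 24.0% with those corrections. Leaving out each library gave 22 to 34 members and 3 to 7 partners called, a median of 0.66 to 0.72, and 3106 to 5692 genes called (1350 to 2757 higher, 1756 to 2943 lower). PRMT5 ranged from 0.57 to 0.78 and lost its call without control 2 (0.58).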
